A study of Rattus norvegicus with 6 samples.

Results

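Collagens, laminins and integrins are the gene families through which cells build an extracellular matrix and hold on to it. They were followed here in adult rat hippocampal neural stem cells (NSCs), the cultured line HCN, after knockdown of *Derl1*. *Derl1* encodes Derlin-1, a membrane protein that takes part in the removal of misfolded proteins from the endoplasmic reticulum. The members were all genes named as a numbered collagen α chain (*Col*), as a laminin α, β or γ chain (*Lama*, *Lamb*, *Lamc*), or as an integrin α or β chain (*Itga*, *Itgb*), with the integrin-binding proteins of the *Itgb1bp* type left out. This gave 55 of the 17315 genes listed, namely 27 collagens, 8 laminins and 20 integrins. The measurement was RNA-seq of poly(A) RNA. The deposited value is TPM, a relative abundance which is corrected for transcript length and can thus be compared between genes.

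Both groups came from the same line, which was cloned from rat cells in earlier work, and both received a Stealth siRNA duplex. siControl NSCs received a control duplex and siDerl1 NSCs a duplex against *Derl1*, with 3 samples in each group, numbered 1 to 3. All 6 samples were kept for 2 days with BMP4, a growth factor that induces these cells to quiescence, in medium that also held bFGF. The dishes were coated with poly-L-ornithine and laminin, so the cells had a laminin substrate that was not of their own making. Because 1 duplex was used against *Derl1*, an effect of the duplex and an effect of less Derlin-1 cannot be told apart. The labels do not say whether the 3 samples were separate cultures, so p-values measure the spread between these samples.

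All 3 families work as assemblies. A collagen is a triple helix of α chains, a laminin is a cross-shaped protein of an α, a β and a γ chain, and an integrin is a receptor of an α and a β chain whose α chain largely sets the ligand. The integrin β1 chain (*Itgb1*) pairs with most of the α chains measured here, among them the laminin receptors α6 and α7, the collagen receptor α1 and the receptors α5 and α8, which bind matrix proteins with an RGD sequence. Laminins and integrins that bind them are known from the basement membranes and vessels that NSCs touch in the brain.

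Series-wide checks came first. *Derl1* was at 122, 132 and 128 TPM in the siControl samples, against 44.9, 70.8 and 74.0 TPM after *Derl1* knockdown, so the knockdown left about 49.8% of the siControl mean (log2 fold change −1.03, adjusted p = 0.497 from limma, 0.00884 with the replicate block). Of 6 NSC markers, 5 had a mean of at least 1 TPM (summed level 3861 to 5751 TPM in siControl and 4291 to 5736 TPM in siDerl1 NSCs), and *Prom1* was listed at 0 in every sample. The 6 oligodendrocyte lineage markers, *Sox10* and *Mbp* among them, also all had a mean of at least 1 TPM (summed 1267 to 1733 TPM). Cells that make much collagen in the brain were checked by their markers. The summed level of 6 endothelial markers did not pass 1.12 TPM in any sample, and that of 7 pericyte and smooth muscle markers did not pass 2.27 TPM. Of the latter, *Pdgfrb* was at 0.26, 0.45 and 0.47 TPM in siControl, against 1.34, 0.97 and 1.44 TPM in siDerl1 NSCs, without overlap. Its mean was under 1 TPM, so it was not tested. The fibroblast genes *Lum* and *Dcn* were listed at 0 throughout, although *Twist1* reached 26.02 TPM and the 7 fibroblast markers summed to between 31.7 and 53.8 TPM.

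Of the 55 members, 30 had a mean of at least 1 TPM over the 6 samples and are called expressed here: 14 of 27 collagens, 4 of 8 laminins and 12 of 20 integrins. That is 54.5% of the members, against 59.7% of all genes listed (10331 of 17315). The other 25 members had a mean of at most 0.728 TPM, that of *Itgal*, and no single value above 0.920 TPM. *Col3a1*, *Lamc3* and *Itgb2* were listed at 0 in every sample. TPM keeps no read numbers, so a value listed at 0 gives no limit on how much RNA could have been missed.

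**Figure D1:**
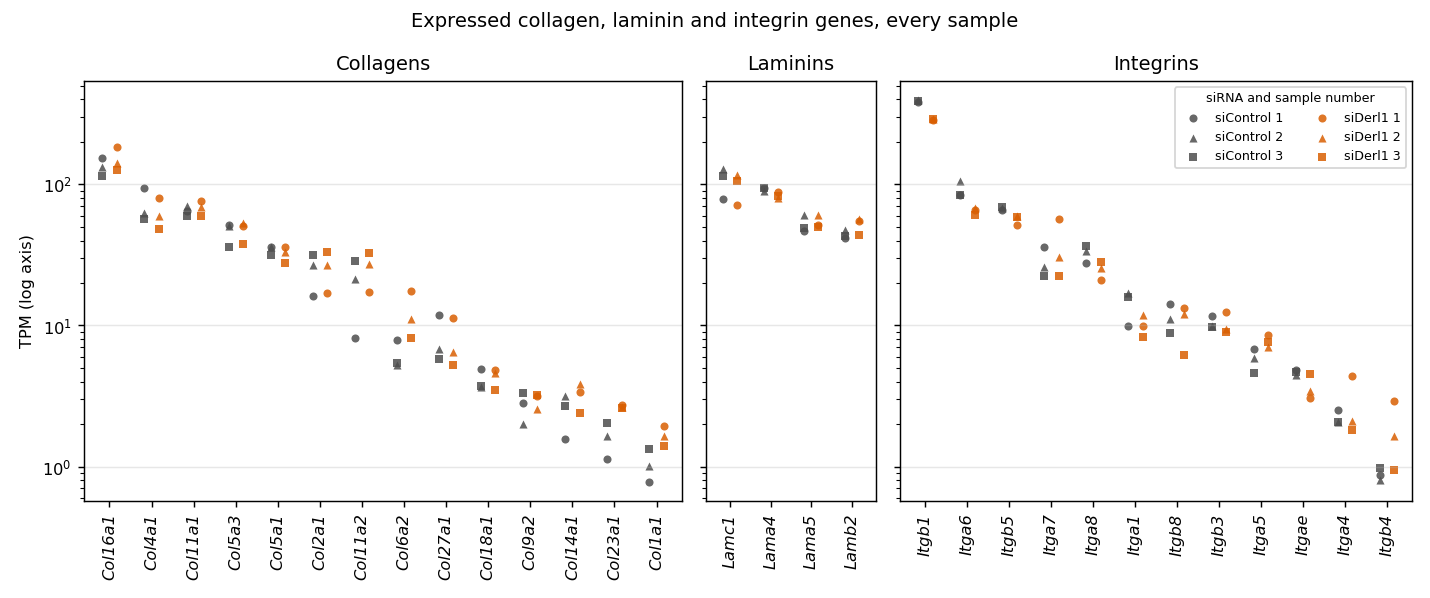
TPM (log axis) of the 30 expressed members in all 6 samples, by family and in order of their mean, with siControl in grey, siDerl1 in orange and the marker shape giving the sample number. *Itgb1* stands above all other members, between 285 and 396 TPM, and the 4 laminins lie within a narrow band of 41.4 to 129 TPM.

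A few genes held most of the collagen TPM, counted over the 27 collagens listed, while chains such as *Col6a1* were not analysed here. *Col16a1*, a collagen that decorates the surface of fibrils, was the highest, at 155, 134 and 114 TPM in siControl samples 1, 2 and 3 and at 184, 141 and 127 TPM in siDerl1 samples 1, 2 and 3. It held 32.7% of the mean collagen TPM, and the 6 highest members together held 87.5%. The next were *Col4a1*, a chain of the network of basement membranes (48.4 to 94.3 TPM), *Col11a1* (59.5 to 76.4 TPM), *Col5a3* (35.9 to 53.4 TPM) and *Col5a1* (27.8 to 36.1 TPM). The last 3 are chains of the minor fibrillar collagens V and XI. *Col4a1* was above *Col11a1* only in the samples numbered 1, so this pair has no fixed order, while *Col5a3* was below *Col4a1* in each sample.

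The chains of collagens I and III were low or listed at 0. *Col1a1*, which forms the bulk of collagen I with *Col1a2*, was at 0.780, 1.01 and 1.34 TPM in siControl, against 1.94, 1.66 and 1.40 TPM in siDerl1 NSCs. *Col1a2* was between 0.10 and 0.65 TPM, which put the ratio of *Col1a1* to *Col1a2* anywhere from 2.55 to 13.4, a range that values this low do not allow to be read further. *Col5a2*, the usual partner of *Col5a1* in collagen V, reached no more than 0.17 TPM. *Col2a1*, whose product can serve as a chain of collagen XI, was at 16.1 to 33.0 TPM and *Col11a2*, another chain of collagen XI, at 8.21 to 32.5 TPM. The remaining expressed collagens, all with lower means, were *Col6a2*, *Col27a1*, *Col18a1*, *Col9a2*, *Col14a1* and *Col23a1*. *Col4a3* and *Col4a4*, the chains of a basement membrane network that is best known from kidney and lung, stayed at or under 0.600 TPM.

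The laminins came down to 4 genes. *Lamc1*, the γ chain of most laminins, was at 78.8, 129 and 114 TPM in siControl, against 71.6, 117 and 106 TPM in siDerl1 NSCs. *Lama4* was at 80.4 to 94.0 TPM, *Lama5* at 46.5 to 61.0 TPM and *Lamb2* at 41.4 to 57.3 TPM. In every sample *Lama4* was above *Lama5*, while *Lama5* and *Lamb2* overlapped. These are the chains of the laminins with an α4 or α5, a β2 and a γ1 chain. *Lama1*, *Lamb3* and *Lamc3* did not pass 0.160 TPM. Summed over the genes measured, the α chains were at 133 to 151 TPM, the β chains at 41.4 to 57.4 TPM and the γ chains at 71.6 to 129 TPM. The β chains were the lowest in each sample, at 0.367 to 0.766 of the γ chains; genes such as *Lamb1* were not analysed here, so these sums cover only the genes measured.

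Among the integrins *Itgb1* held 57.5% of the mean TPM, and the 3 highest genes, *Itgb1*, *Itga6* and *Itgb5*, held 81.2%. *Itga6*, a laminin receptor chain, was at 60.8 to 106 TPM. *Itgb5*, which encodes a β chain of vitronectin receptors, was at 51.8 to 68.8 TPM. *Itga7*, the other laminin receptor chain, was at 22.2 to 57.2 TPM and *Itga8*, an RGD receptor chain, at 21.1 to 36.8 TPM. *Itga1* (8.34 to 16.9 TPM), *Itgb8* (6.16 to 14.2 TPM) and *Itgb3* (8.94 to 12.4 TPM) followed. *Itga4*, an α chain known from leukocytes and other cells, was at 1.81 to 4.35 TPM, while the leukocyte chains *Itgal* and *Itgam* did not pass 0.920 and 0.0600 TPM. *Itgae*, the α chain that pairs with β7, was at 3.07 to 4.82 TPM although *Itgb7* did not pass 0.230 TPM. *Itgb1* exceeded the sum of its 8 measured α partners in every sample, as that sum was 0.424 to 0.585 of *Itgb1*; other partners were not analysed here.

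The promoters of *Itgb1* and *Lamc1* are shown because these genes had the smallest p of the members in the comparisons that follow. RefSeq promoter sequences of the build GRCr8 matched 21 of the 30 expressed members by symbol, and *Itga6* and *Col6a2* are named only. The sequences below are the 250 bases before the annotated start, with each GGGCGG, on either strand, in capitals; this is the GC box that SP1 factors bind. The window of *Itgb1* was chr19:73602027-73602276, plus strand, and that of *Lamc1* was chr13:68051987-68052236, minus strand.
Itgb1: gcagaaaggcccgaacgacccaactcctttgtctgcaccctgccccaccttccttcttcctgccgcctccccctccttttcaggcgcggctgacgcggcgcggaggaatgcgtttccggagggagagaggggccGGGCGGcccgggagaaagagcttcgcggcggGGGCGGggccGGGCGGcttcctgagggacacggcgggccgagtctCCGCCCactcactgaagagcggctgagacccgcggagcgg
Lamc1: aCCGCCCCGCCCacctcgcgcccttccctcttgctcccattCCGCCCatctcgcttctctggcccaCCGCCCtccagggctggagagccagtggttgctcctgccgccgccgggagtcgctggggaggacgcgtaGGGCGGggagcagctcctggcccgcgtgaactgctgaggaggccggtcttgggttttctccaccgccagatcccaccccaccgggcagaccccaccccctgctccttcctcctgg

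The *Itgb1* sequence held 4 GC boxes and the *Lamc1* sequence 5, of which the first pair share a base. Both were 71.2% G or C, against a median of 51.2% over 33469 promoters. At least 1 GC box was found for 14 of the 21 members and in 30.5% of all promoters. The sequence TATAAA, searched in the same way, was found for 1 member, *Lama4*, and in 12.9% of all promoters. TTCNNNGAA, the core bound by STAT factors, was found for 1 member, *Itga5*, and in 7.67% of all promoters, and the AP-1 core TGANTCA for 0 members and in 6.34% of all promoters. These matches describe letters in a window and were not tested as binding sites.

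The first comparison asked whether the families differed between siDerl1 and siControl NSCs. The integrin chains *Itgb1*, *Itga6* and *Itga8* were lower in siDerl1 NSCs past the study's limits, *Col6a2* and *Col23a1* were higher past them, and no laminin passed in either direction. TPM were taken as log2(TPM + 1) and fitted with limma over the 10331 genes with a mean of at least 1 TPM; a fold change on this scale understates that of low genes. No member, and no gene at all (0%), had an adjusted p under 0.05 in the fit without pairing of the samples. At an unadjusted p under 0.05 there were 6 of the 30 members, 2 higher and 4 lower, against 6.7% of all genes tested (2.67% higher and 4.03% lower). The values of both groups lay apart, with no overlap, for 8 of the 30, 4 higher and 4 lower, against 13.6% of all genes (5.09% higher and 8.52% lower). When the sample number was a block in the fit, which compares samples of the same number, 2 of the 30 members, *Itgb1* and *Itga6*, had an adjusted p under 0.05, both lower, against 0.552% of all genes (57 of 10331; 0.194% higher and 0.358% lower). The study set its fold limits of 1.5 and 0.8 on edgeR results. Here they were put on the ratio of mean TPM, above 1.5 or below 0.8, with an unadjusted limma p under 0.05. In this form the study's limits were passed upward by 2 members (0.716% of all genes) and downward by 3 (1.49% of all genes). With the block 2 members passed upward (1.66% of all genes) and 4 downward (2.57% of all genes), *Itga1* being added to the 3. At an unadjusted p under 0.05 the blocked fit held 15 of the 30 members, 7 higher and 8 lower, against 15.7% of all genes (6.84% higher and 8.88% lower); these were 5 of 14 collagens, 3 of 4 laminins and 7 of 12 integrins. With any 1 sample left out and no block, 1 or 0 collagens passed upward, the 0 being without siControl sample 2, and 1 integrin did without siDerl1 sample 3. The integrins that passed downward then numbered 2 to 4.

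**Figure D2:**
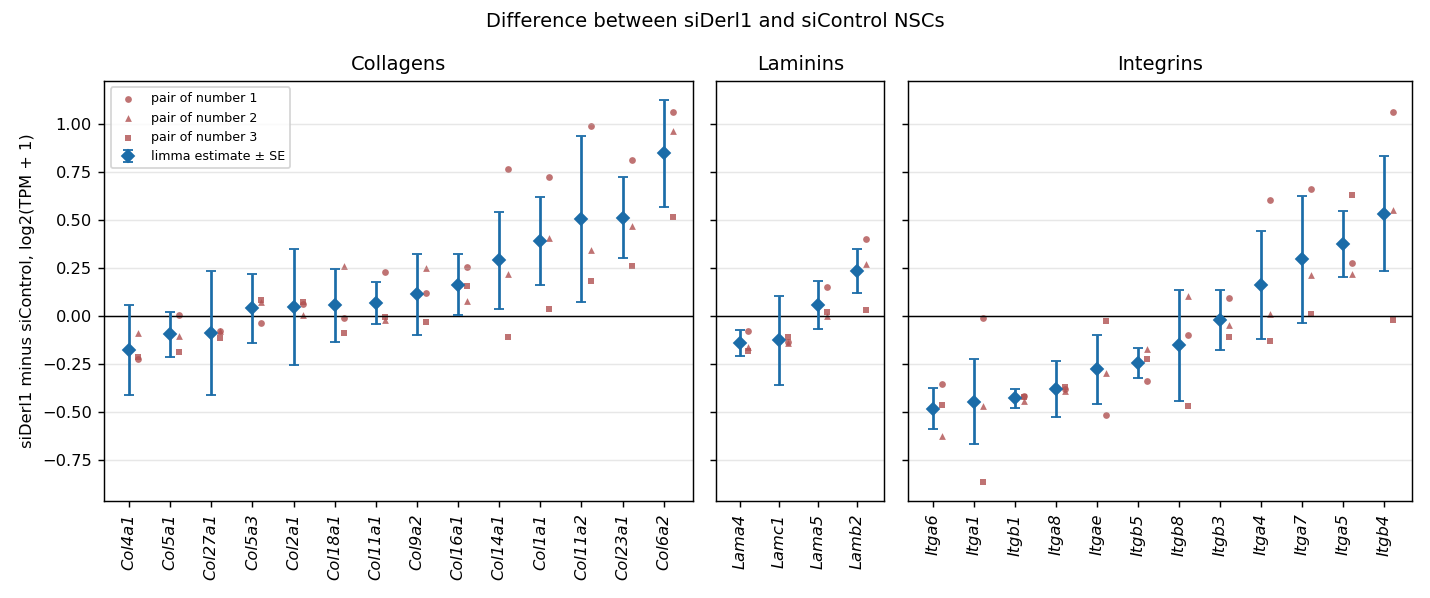
Difference of siDerl1 minus siControl on the log2(TPM + 1) scale for the 30 expressed members, with the limma estimate ± SE as diamonds and the difference within each pair of equal sample number as small points. *Itgb1*, at −0.43, had closely spaced pairs, as did *Itga8* at −0.38, and *Col6a2*, at 0.85, had the highest estimate of all members.

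*Itgb1* (NM_017022) was at 381, 396 and 392 TPM in the siControl samples, against 285, 290.2 and 293 TPM after *Derl1* knockdown. The groups were far apart, the lowest siControl sample being well above the highest siDerl1 sample. The mean went from 389.8 ± 7.46 to 289 ± 3.96 TPM (SD, n = 3 each), which is 74.2% of the siControl level. The log2 fold change was −0.43 (SE 0.05), and the pairs of number 1, 2 and 3 gave −0.42, −0.45 and −0.42. Of all 10331 genes tested, *Itgb1* had the smallest p (limma, unadjusted p = 4.0e-05), with an adjusted p of 0.332, and 0.00884 with the replicate block. The call with the block rests on the settings of the fit: the adjusted p was 0.229 with the block and no intensity trend, and 0.104 where the blocked fit kept all genes. Over the 15 alternatives the adjusted p of *Itgb1* ran from 0.00884 to 0.996. Without both samples numbered 1 the log2 fold change was −0.43 (adjusted p = 0.0310 from limma, 2 samples a group).

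*Itga6* (NM_053725), the laminin-binding partner of β1, was at 84.0, 106 and 84.3 TPM in siControl, against 65.4, 68.2 and 60.8 TPM in siDerl1 NSCs. All siDerl1 samples lay below all siControl samples, and sample 2 of siControl was set above the other 2. The mean was 70.9% of the siControl level, from 91.4 ± 12.6 to 64.8 ± 3.77 TPM (SD, n = 3 each). The log2 fold change was −0.48 (SE 0.11; adjusted p = 0.669 from limma, 0.0256 with the replicate block). With the block, the adjusted p was 0.240 without the intensity trend and 0.136 without the filter. The ratio of *Itga6* to *Itgb1* within a sample overlapped between the groups, 0.215 to 0.268 in siControl and 0.208 to 0.235 in siDerl1 NSCs.

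*Itgb5* was lower in each pair, by 0.34, 0.17 and 0.23 in size on the log2 scale. It was at 65.8, 67.6 and 68.8 TPM in siControl, against 51.8, 59.9 and 58.6 TPM in siDerl1 NSCs, without overlap (log2 fold change −0.25, adjusted p = 0.704 from limma). *Itga8* was at 27.8, 33.8 and 36.8 TPM and at 21.1, 25.5 and 28.2 TPM. Its groups overlapped, by siDerl1 sample 3 against siControl sample 1, and the pairs were close to each other at −0.38, −0.39 and −0.37 (adjusted p = 0.707, and 0.0917 with the replicate block). Without the block, *Itga8* no longer passed the study's limits when siControl sample 2 or 3, or siDerl1 sample 1 or 2, was left out (limma, unadjusted p of 0.0622 to 0.110). *Itga1*, the collagen-binding chain, was at 9.94, 16.9 and 16.0 TPM in siControl, against 9.85, 11.9 and 8.34 TPM in siDerl1 NSCs. Its low siControl sample 1 made the groups overlap, and its log2 fold change was −0.45 (SE 0.22, adjusted p = 0.763). With the block its adjusted p was 0.243 (unadjusted p = 0.0249 from limma), and the pairs gave −0.01, −0.47 and −0.86.

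**Figure D3:**
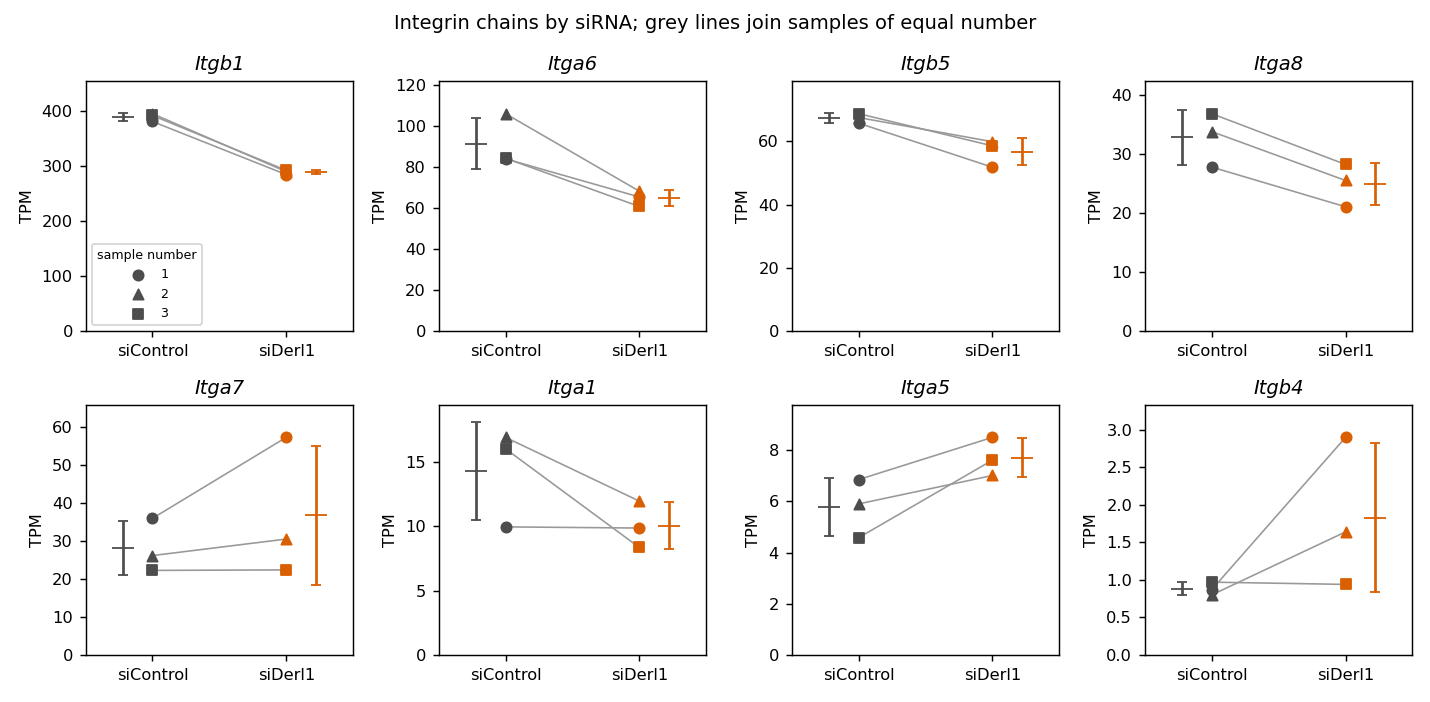
TPM of 8 integrin chains in siControl and siDerl1 NSCs, with grey lines joining samples of equal number and bars giving the mean ± SD (n = 3). All lines go down for *Itgb1*, *Itga6*, *Itgb5* and *Itga8*, while *Itga7* differs most in the pair of number 1 and *Itgb4* in the pairs of number 1 and 2.

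Some of the other integrin chains were higher in the mean of siDerl1 NSCs. *Itga5*, a fibronectin receptor chain, was at 6.85, 5.90 and 4.58 TPM in siControl, against 8.50, 7.01 and 7.61 TPM in siDerl1 NSCs, without overlap (log2 fold change 0.37, adjusted p = 0.763). *Itga7* was at 35.9, 26.1 and 22.2 TPM and at 57.2, 30.5 and 22.4 TPM, so that the pair of number 1 differed by 0.66 and that of number 3 by 0.01. *Itgb4*, which pairs only with α6, was low, at 0.87, 0.80 and 0.97 TPM in the siControl samples and at 2.90, 1.64 and 0.94 TPM after knockdown. It overlapped through the pair of number 3, and its adjusted p was 0.772. *Itgae* was lower in each pair, at −0.52, −0.30 and −0.03 (adjusted p = 0.810). Over the 12 expressed integrins, 4 had a log2 fold change above 0 and 8 below it, against 4674 and 5657 of all 10331 genes tested. The integrin median was −0.20, where the median of all genes tested was −0.02. Without the filter on low values the integrin median was −0.023, and without siDerl1 sample 3 it was −0.10. The integrin TPM summed over all 20 genes was 647, 681 and 653 in siControl and 537, 523 and 502 in siDerl1 NSCs, and *Itgb1* made up most of that gap.

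*Col6a2* (NM_001100741), a chain of the beaded filaments of collagen VI, was at 7.89, 5.26 and 5.4 TPM in siControl, against 17.6, 11.2 and 8.14 TPM in siDerl1 NSCs. The groups did not overlap, although siDerl1 sample 3 was close to siControl sample 1. The mean went from 6.18 ± 1.48 to 12.3 ± 4.80 TPM (SD, n = 3 each), 1.99 times the siControl level. The log2 fold change was 0.85 (SE 0.28; adjusted p = 0.704 from limma, 0.0565 with the replicate block). It was highest in the pairs of number 1 and 2, at 1.06 and 0.96, and 0.51 in that of number 3. Without the block, the unadjusted limma p of *Col6a2* was 0.0598 with siControl sample 2 left out and 0.0532 with siControl sample 3 left out. *Col6a1* was not analysed here.

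*Col23a1*, a transmembrane collagen, was at 1.13, 1.65 and 2.02 TPM in siControl, against 2.73, 2.66 and 2.61 TPM in siDerl1 NSCs, without overlap (log2 fold change 0.51, adjusted p = 0.736). *Col1a1*, at the values given above, did not overlap either (log2 fold change 0.39, adjusted p = 0.778), and the pair of number 3 differed by only 0.04. Both genes are on the study's own list of higher genes, which was drawn from these same samples, so their direction is not independent evidence. *Col1a1* did not pass the limits as applied here (limma, unadjusted p = 0.13). *Col23a1* passed them, but without the block its unadjusted limma p was 0.0821 to 0.124 with any 1 sample other than siControl sample 3 left out. With a pseudocount of 0.1 that p was 0.0521. Of the 14 expressed collagens 11 had a log2 fold change above 0, with a median of 0.09. Of all 10331 genes tested 4674 did, with a median of −0.02. In the pairs of number 1, 2 and 3, 10, 10 and 7 of the 14 collagens were higher, against 5357, 4550 and 4401 of all genes tested. Of the most abundant ones, *Col16a1* had a log2 fold change of 0.16 (SE 0.16, and 0.056 with the block), with pairs of 0.25, 0.08 and 0.16. *Col4a1* was at −0.18 (SE 0.23, and 0.066 with the block), with pairs of −0.23, −0.09 and −0.22. All 3 pairs of each gene thus had 1 sign, and the adjusted p with the block was 0.216 and 0.245 (limma). For *Col11a1* the log2 fold change was 0.07 (SE 0.11).

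Of the 4 expressed laminins 0 had an unadjusted p under 0.05 without the block, and 3 had one with it, namely *Lamc1*, *Lama4* and *Lamb2*. Their limma adjusted p values with the block were 0.307, 0.295 and 0.244. *Lama4* was at 94.0, 90.2 and 94.0 TPM in siControl, against 88.9, 80.4 and 82.8 TPM in siDerl1 NSCs, without overlap, at 90.6% of the siControl mean (log2 fold change −0.14, SE 0.07, adjusted p = 0.762). *Lamb2* was at 41.4, 47.3 and 43.2 TPM and at 54.8, 57.3 and 44.1 TPM, and the groups overlapped (log2 fold change 0.23, SE 0.11, adjusted p = 0.763). For *Lamc1* the log2 fold change was −0.13 (SE 0.23) and for *Lama5* it was 0.05 (SE 0.13).

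**Figure D4:**
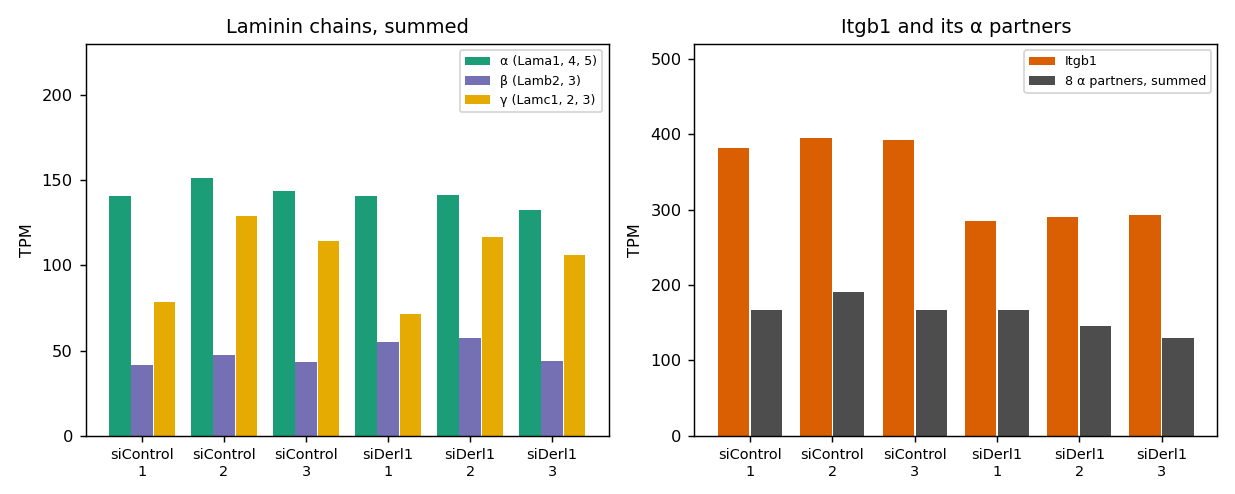
Left, TPM of the laminin α, β and γ chains summed over the genes measured, in each sample; right, TPM of *Itgb1* beside the sum of its 8 measured α partners. The γ sum is lowest in both samples numbered 1 (78.8 and 71.6 TPM), and *Itgb1* is lower in all siDerl1 samples than in all siControl samples.

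Over 5 lists of genes of the same biology, 5 of 63 tested genes had an unadjusted p under 0.05 (7.94%) without the block, where 6.7% of all genes did, and 17 of 63 (26.98%; 4 higher and 13 lower) with it, where 15.7% of all genes did. The counts that follow are without the block unless it is named. Of 18 tested genes for the making of collagen, 0 were higher and 2 lower at an unadjusted p under 0.05: *P3h4* (log2 fold change −0.19) and *Crtap* (−0.40), which both take part in the hydroxylation of collagen prolines or lysines in the endoplasmic reticulum. *Crtap* was at 62.0, 62.7 and 70.1 TPM in siControl, against 40.0, 54.8 and 53.2 TPM in siDerl1 NSCs, and the adjusted p was 0.704 for both genes. Of 15 genes that link integrins to the cytoskeleton, 1 was higher, *Vcl* (vinculin), at 4.77, 4.36 and 5.04 TPM and at 10.4, 6.65 and 6.01 TPM, and 0 were lower; *Parva* had a log2 fold change of −0.15. Of 6 other receptors for laminin or collagen, 0 were higher and 1 lower, the collagen receptor *Ddr1* (log2 fold change −0.19), while *Sdc4* was at 0.26. Of 11 genes of matrix breakdown, 1 was higher, *Mmp14*, a membrane-bound collagenase, at 1.35, 1.49 and 3.0 TPM and at 8.71, 3.69 and 4.64 TPM, and 0 were lower, with *Mmp15* at −0.31. Of 13 other matrix glycoproteins 0 passed in either direction, *Fbln1* (0.24) and *Nid2* (−0.26) having the smallest p. With the block, 1 of these glycoproteins was higher, *Fbln1*, and 4 were lower, *Nid2*, *Ncan*, *Ntn4* and *Tnc*. The blocked counts were 1 higher and 4 lower for the making of collagen, 1 and 3 for the link to the cytoskeleton, 0 and 1 for the other receptors, and 1 and 1 for matrix breakdown. *Tnc* (tenascin C) was at 5.85, 36.2 and 26.01 TPM in siControl, against 3.71, 14.8 and 15.7 TPM in siDerl1 NSCs, lower in each pair (limma adjusted p with the block 0.0565). None of these genes had an adjusted p under 0.05 without the block. With it, *Ncan*, a proteoglycan of brain matrix named here because it alone passed, did (log2 fold change −0.33, limma adjusted p = 0.0319). This call was not followed over the other settings of the fit.

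Single markers, rather than whole lists, differed between the groups. *Gfap*, an intermediate filament gene of astrocytes and adult NSCs, was at 47.0, 27.7 and 28.9 TPM in siControl, against 66.3, 47.5 and 45.3 TPM in siDerl1 NSCs (adjusted p = 0.704 from limma, 0.0219 with the replicate block), while *Nes* was at 137, 125 and 113 TPM and at 111, 101 and 99.4 TPM. The other tested markers of these lists did not share this, with log2 fold changes of 0.01 for *S100b*, −0.15 for *Slc1a3*, 0.08 for *Sox2*, 0.06 for *Sox9*, −0.07 for *Fabp7* and 0.07 for *Vim*, none with an unadjusted p under 0.05 in either fit. Among the oligodendrocyte lineage markers *Pdgfra* was at −0.42 on this scale (limma adjusted p with the block 0.113) and *Mbp* at 0.17. Of the 5 astrocyte markers, summed at 567 to 779 TPM in siControl and 560.5 to 822 TPM in siDerl1 NSCs, *Aqp4* and *Aldh1l1* were near 0. Of the 5 neuron markers, summed at 116 to 140 TPM in siControl and 118 to 131 TPM in siDerl1 NSCs, 3 were tested. At an unadjusted limma p under 0.05, 2 of them were lower, against 4.03% of all genes tested. *Dcx* was at 8.83, 10.95 and 9.57 TPM in siControl against 6.38, 7.10 and 7.63 TPM in siDerl1 NSCs. *Syt1* was at 47.2, 53.6 and 48.6 TPM against 39.45, 45.7 and 33.2 TPM (limma adjusted p = 0.704 for both genes). The other tested neuron marker, *Tubb3*, was higher without overlap, at 58.8, 74.9 and 70.4 TPM against 83.2, 76.3 and 76.2 TPM (log2 fold change 0.21, adjusted p = 0.763). The values of these markers with the block, that of *Gfap* among them, were not followed over the other settings of the fit. The part of these markers in the integrin and collagen values was not tested. In bulk RNA, fewer cells of a type and less RNA per cell cannot be told apart.

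The second comparison asked how far samples of the same number were alike, whatever the siRNA, with a limma F test for sample number in a fit that also held the siRNA group. By this test 9 of the 30 members had an adjusted p under 0.05, against 10.6% of all genes tested. They were 6 of the 14 collagens, 1 of the 4 laminins and 2 of the 12 integrins. Without the intensity trend in the fit, 2 collagens and 0 integrins passed. For 9 members both samples numbered 1 were above the other 4 samples, and for 3, *Col2a1*, *Col11a2* and *Lamc1*, both were below them, against 15.7% and 17.0% of all genes tested. Both samples numbered 3 were above the other 4 for 3 members and below them for 8, against 9.25% and 11.3% of all genes. Number 2 stood apart in this way for 3 members, against 9.15% of all genes. What the number stands for is not given in the labels.

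*Lamc1* had the smallest p of the members (adjusted p = 6.0e-04). It was at 78.8 and 71.6 TPM in the samples numbered 1, at 129 and 117 TPM in those numbered 2 and at 114 and 106 TPM in those numbered 3, siControl first. *Col4a1* was highest in number 1, with 94.3 and 80.5 TPM in number 1, 63.1 and 59.3 TPM in number 2 and 56.4 and 48.4 TPM in number 3 (adjusted p = 0.00151). Both genes encode parts of basement membranes; number 1 was lowest for *Lamc1* and highest for *Col4a1*, while both were lower in number 3 than in number 2. *Lama4* and *Lama5*, in contrast, had adjusted p values of 0.635 and 0.0760.

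*Col2a1* and *Col11a2*, both known from cartilage, were lowest in number 1. *Col2a1* was at 16.1 and 16.9 TPM in number 1, 26.8 and 26.9 TPM in number 2 and 31.4 and 33.0 TPM in number 3 (adjusted p = 0.00220). *Col11a2* was at 8.21 and 17.3, at 21.4 and 27.3 and at 28.5 and 32.5 TPM (adjusted p = 0.00570), and it was higher in siDerl1 NSCs within each pair. *Sox9*, the factor that drives *Col2a1* and *Col11a2* in cartilage and that was among the NSC markers, was at 7.50 and 9.42 TPM in number 1 and between 34.7 and 38.3 TPM in the other 4 samples; a link between these levels was not tested. Other chains known from cartilage did not share the pattern: *Col11a1* had an adjusted p of 0.196, and *Col9a2* was lowest in number 2, at 2.00 and 2.57 TPM.

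The other members past the threshold had high values in number 1, or low ones in number 3. *Col16a1* was at 155 and 184 TPM in number 1 and at 114 and 127 TPM in number 3 (adjusted p = 0.00615). *Col27a1*, another fibrillar chain, was at 11.9 and 11.2 TPM in number 1 and between 5.24 and 6.86 TPM elsewhere (adjusted p = 0.0161). *Itga7* was at 35.9 and 57.2 TPM in number 1 and between 22.2 and 30.5 TPM elsewhere (adjusted p = 0.00766), and *Itgb8*, whose integrin binds latent TGF-β, was at 14.2 and 13.2 TPM in number 1 and at 8.90 and 6.16 TPM in number 3 (adjusted p = 0.0435). *Col5a3* was alike in numbers 1 and 2, at 50.4 to 53.4 TPM, and lower in number 3, at 35.9 and 38.1 TPM (adjusted p = 0.0129). *Itgb1*, which led the first comparison, gave an adjusted p of 0.831 for sample number.

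**Figure D5:**
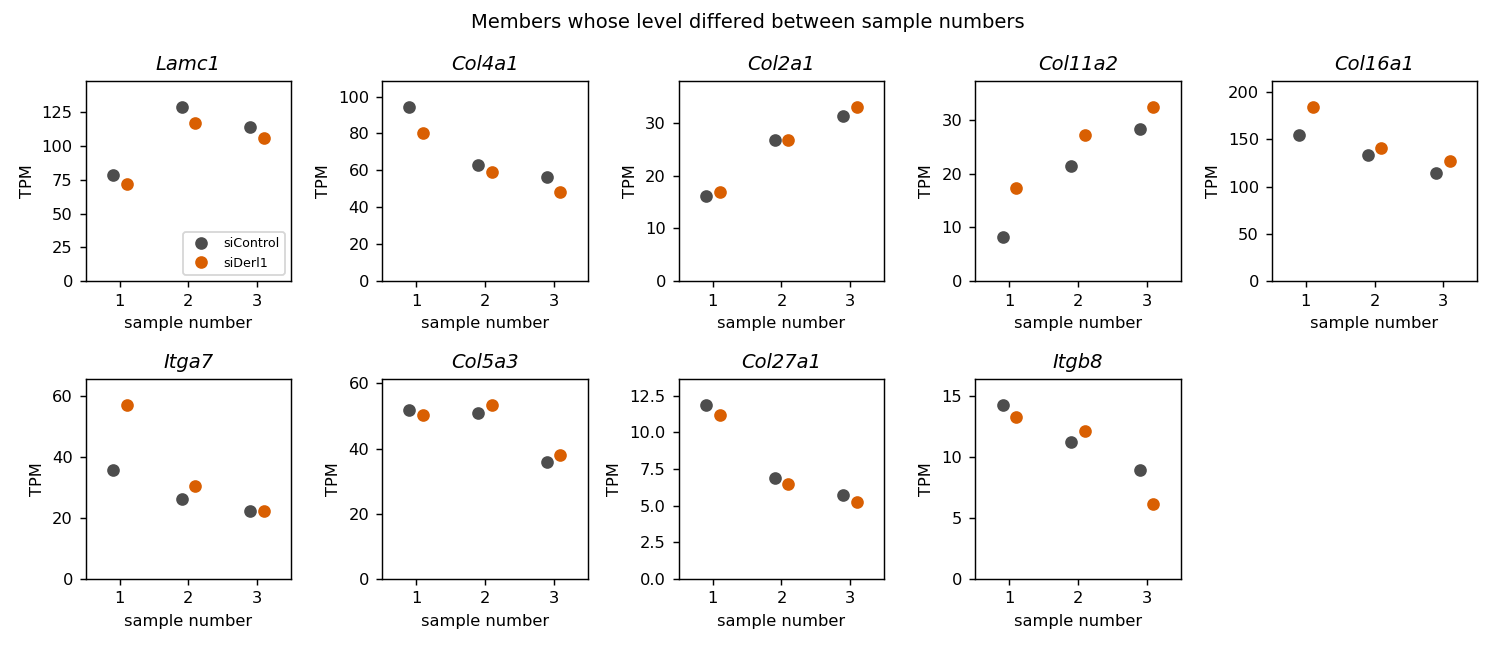
TPM of the 9 members with an adjusted p under 0.05 for sample number, against the sample number, with siControl in grey and siDerl1 in orange. *Lamc1*, *Col2a1* and *Col11a2* are lowest in number 1, and *Col4a1*, *Col16a1*, *Itga7*, *Col27a1* and *Itgb8* are highest there.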

How the data were processed

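Poly(A) RNA of 6 samples was sequenced on an Illumina HiSeq X from strand-specific libraries. Per the submitters' processing notes and the methods, reads were trimmed with Trimmomatic (0.39), mapped to rn6 with STAR (2.7.3a) and quantified with RSEM (1.3.2). The deposited values are the authors' TPM per RefSeq gene, rounded to 2 decimals. Because TPM hold no read numbers, sequencing depth is unknown here and intervals for counting error were not computed. The authors' own test used edgeR on values not used here. The shares sum to a fixed total, so a change in abundant genes shifts the rest; median-of-ratios factors lay between 0.99 and 1.02.

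Groups and numbers were taken from the sample titles. The groups were compared with limma (3.58.1, R 4.3.3) on log2(TPM + 1) (trend option on; 10331 genes whose 6-sample mean TPM reached 1), with Benjamini-Hochberg adjustment over all of them. Sample number was tested by a moderated F in a fit with group and number. The fits were also run on simulated data, with independent noise of a smaller spread than in these samples. That run was a check of the code and does not show how many changes the fits would find here. Reads shared by near-identical copies may be split by RSEM. At most 0.596% of the values above 0 were equal between any pair of samples.

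Samples of the same number deviated together from their group means (correlations of 0.70, 0.35 and 0.51 for numbers 1, 2 and 3, across genes, which are not independent replicates). Between unlike numbers the correlations were −0.59 to −0.41 with number 1, and 0.34 and 0.25 between 2 and 3, so numbers 2 and 3 were less clearly told apart. The main fit did not pair the samples. A second fit took the number as a block, and its values are given beside the main ones for some genes only. The call at an unadjusted limma p under 0.05 was also gained with the block by *Col11a2*, *Itga7* and *Itga5*, all higher in siDerl1 NSCs. Their SE went from 0.43 to 0.15, from 0.33 to 0.12 and from 0.17 to 0.16. None of these had an adjusted p under 0.05 with the block.

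Named genes are, per family, the 6 expressed members with the highest mean, the 3 with the smallest p in each comparison and every member past a limit, with the chains of the ratios, *Col1a1* and *Col23a1*, and 2 genes of each related list. *Itga5*, *Itgb4*, *Itgae*, *Col9a2*, the members given by their range, the ratios of *Itga6* to *Itgb1*, *Ncan*, *Ntn4*, *Tnc* and the cell type markers given by value were chosen after their values were seen. The members and lists were chosen with earlier results of these data known. Alternatives were a pseudocount of 0.1, no filter, a mean TPM of at least 5, scaling, no trend, the block, each sample left out and, added later, both samples numbered 1 left out.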

Additional observations from a re-analysis of the deposited data

How the results depend on the processing

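The siRNA comparison was recomputed under 15 alternatives, 1 of them (both samples numbered 1 left out) chosen after seeing the data, and that of sample number under 11. Of 22 named members, 12 kept their sign in all of them. *Itgb1* lay between −0.44 and −0.41 and *Itga6* between −0.55 and −0.37 on the log2 scale, with an unadjusted limma p under 0.05 throughout. With the replicate block the *Derl1* value was −1.03 with an adjusted p of 0.00884 (0.229 with the block and no trend, 0.104 with the block and all genes kept), and 2 integrins had an adjusted p under 0.05; without both samples numbered 1, *Derl1* was at −0.83 (adjusted p 0.00545) and 1 integrin passed. The block changed no other adjusted call of a member; with it, integrins lower past the limits went from 3 to 4. Collagens higher past the limits numbered 1 with a pseudocount of 0.1 and with the mean TPM limit raised to 5, but 3 without the filter and without the trend, the latter also with the block. For sample number, 2 collagens and 0 integrins passed without the intensity trend, 0 integrins without the filter and 1 with median-of-ratios scaling. The integrin median was −0.023 without the filter, with or without the block. The cause of these shifts was not tested.

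With 1 sample left out at a time, *Derl1* ranged from −1.16 to −0.80, collagens higher past the limits from 0 to 1, integrins higher past them from 0 to 1, integrins lower past them from 2 to 4 and sample number calls from 4 to 8 (collagens), 1 to 2 (laminins) and 1 to 4 (integrins). Integrins with an adjusted p under 0.05 numbered 0 in each of these. Family medians ranged from 0.045 to 0.18 (collagens), −0.078 to 0.093 (laminins) and −0.26 to −0.10 (integrins). Log2 fold changes that turned sign ranged from −0.37 to 0.040 for *Col4a1*, −0.019 to 0.16 for *Col11a1*, −0.13 to 0.18 for *Col5a3*, −0.18 to 0.0067 for *Col5a1*, −0.23 to 0.31 for *Col2a1*, −0.37 to 0.18 for *Col27a1*, −0.33 to 0.081 for *Lamc1*, −0.031 to 0.17 for *Lama5*, −0.074 to 0.58 for *Itga7* and −0.34 to 0.16 for *Itgb8*. Depth is unknown, so its limit on low members cannot be given.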
